A study of Mus musculus with 4 samples.

Results

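ER-associated degradation (ERAD), the pathway that removes misfolded proteins from the endoplasmic reticulum (ER), was examined through 10 genes in livers of fasted and re-fed mice: Syvn1, Sel1l, Derl1, Derl2, Derl3, Herpud1, Edem1, Edem2, Edem3 and Vcp. They were taken by name as core parts of the pathway, by matching the gene name of every non-control spot on the arrays, and make up 10 of the 31709 genes or transcripts there, a count that includes 910 probes without a gene name. The genes were chosen with earlier results of these data known. The match gave 13 probes, 3 for Derl2, 2 for Derl1 and 1 for each of the other 8 genes. All 13 probes were above background in both channels of all 4 arrays, none was saturated or flagged, and all 10 genes passed the filter on low signal, which 16054 of the 31709 passed, 496 of them unnamed probes.

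The ER folds secreted and membrane proteins, and the hepatocyte, which makes most plasma proteins, carries a large folding load. In ERAD, mannosidase-like lectins of the EDEM family trim sugar chains on proteins that fail to fold and mark them for removal. Such proteins are passed to a membrane complex built around the ubiquitin ligase Hrd1, encoded by Syvn1, and its partner Sel1l, with the derlins and Herpud1 attached. They are then ubiquitinated, pulled into the cytosol by the ATPase p97, encoded by Vcp, and degraded by the proteasome. Many of these genes are known targets of the unfolded protein response, in which the transcription factors ATF6 and XBP1 act on ER stress elements in promoters.

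Male C57BL/6J mice, 8 to 12 weeks old, gave their livers after a 24 h fast and after the same 24 h fast followed by 2 h of access to food, with 4 individual livers in each group. The study asked which transcripts respond to fasting, as part of its work on the transcription factor CREB. Each of 4 2-colour oligonucleotide arrays held RNA of 1 fasted and 1 re-fed liver, paired at random, and is called a replicate. The fasted liver carried the dye Cy5 on replicates 1 and 2 and Cy3 on replicates 3 and 4. There was no group with food throughout, so a fall on fasting and a rise on re-feeding cannot be told apart, and in whole liver fewer cells of a type cannot be told apart from less RNA per cell. Levels are given as normalized log2 intensities, which can be compared between livers for 1 probe but not between probes, and differences as log2 ratios of fasted over re-fed liver, so that a negative ratio is a lower level in the fasted liver. To be called, a probe had to change by at least 1.5-fold, which is 0.585 on the log2 scale, at an adjusted p under 0.10 in limma (Benjamini-Hochberg over 19721 probes).

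Median spot brightness was 40 to 75 in the red and 44 to 96 in the green channel, over median local backgrounds of 25 to 35 and 20 to 32.5. The ratios of all probes correlated at 0.66 and 0.75 between arrays of the same dye orientation and at 0.22 to 0.40 between arrays of opposite orientation. Hepatocyte markers were all well above background in every liver, with mean ratios of 0.04 to 0.54 over the 4 arrays. A list of pancreatic acinar markers stood apart in re-fed liver 3. There, all 11 of its genes on the array were well above background, against 3 to 8 in the other livers, and their summed intensity was 37927, against 980 to 1119 in the other re-fed and 1004 to 1918 in the fasted livers. The mean ratio of that list was -3.70 on replicate 3 and -0.11 to 0.02 on the others. Derl3 is abundant in secretory cells such as those of the pancreas, and means without replicate 3 are therefore given for each gene. In the same liver 3 of 5 adipose markers were well above background, against 1 in each other liver. The summed intensity of that list was 533, against 377 to 414 in the other re-fed and 362 to 467 in the fasted livers. Cholangiocyte markers had mean ratios of -0.04, -0.19, -0.38 and 0.33. On replicate 3 Krt19 was at -1.19, Krt7 at -0.08, Epcam at -0.14, Sox9 at -0.27 and Spp1 at -0.22. Spp1 was at 1.31 on replicate 4. Blood markers were uneven too. Hba-a1, a hemoglobin gene, had ratios of 2.45 and 2.48 on replicates 1 and 3 and -0.26 and 0.34 on replicates 2 and 4, and the summed intensity of the 4 blood genes on the array was 19265 to 89660 in fasted and 12635 to 27342 in re-fed livers. Markers of plasma cells and B cells had mean ratios of -0.02 to 0.20, and 3 of those 8 genes were above background in no liver. The only one of them well above background in all livers, Cd79b, had ratios of 0.19, -0.17, 1.01 and 0.95. Kupffer and other immune markers had mean ratios of 0.28, -0.24, 0.42 and -0.13. The part of these lists in the results was not tested.

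Measured by the brightest probe of each gene, 5 of the 10 ERAD genes were lower in fasted liver (Derl3, Syvn1, Sel1l, Herpud1 and Edem1) and none was higher. Among all probes tested, 2.08% were called lower and 1.7% higher. The mean ratio was below 0 for all 10 genes, and the median over the 10 genes was -0.81, against 0.003 over all 16054 genes or transcripts. The differences were unequal within the pathway. Derl3 was 9.43-fold and Syvn1 5.02-fold higher in re-fed than in fasted liver, while Derl1, Edem2 and Vcp had ratios between -0.16 and -0.10 and were not called. For 6 of the 10 genes, and for 8 of the 13 probes, every re-fed liver lay above every fasted liver, which was so for 7.78% of all probes. Without replicate 3, the median was -0.76 and 5 genes were again called lower, with Edem3 in place of Edem1, while 1.30% of all probes were. Spots with an extreme local background were left out before the background fit, a step adopted after the data had been seen. With all spots in that fit only Syvn1 was called lower, beside 0.076% of all probes, and the median of the 10 was -0.52. Agilent's processed signals and the authors' deposited ratios, from which no such spots were removed here, each gave the same 5 genes and Edem3 as lower. Of all probes, 4.58% were called lower with Agilent's signals and 2.67% with the deposited ratios.

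**Figure D1:**
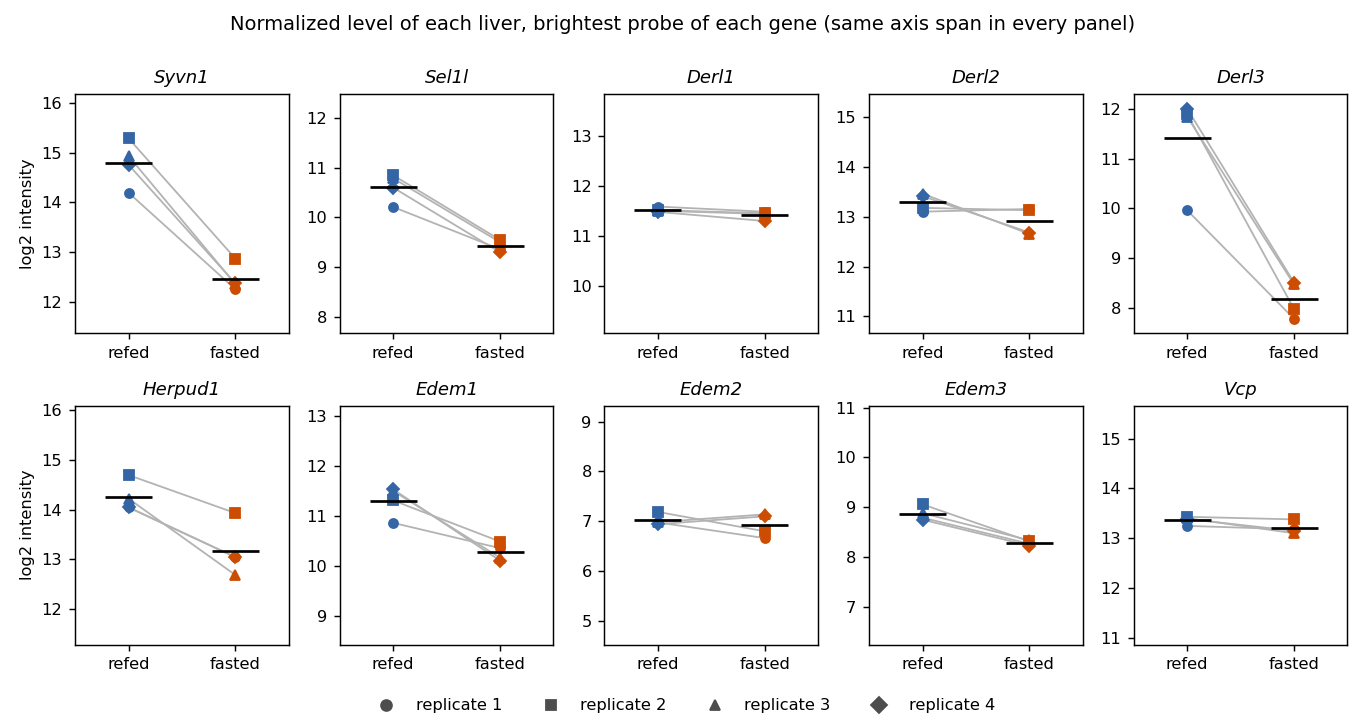
Normalized log2 intensity of the 10 ERAD genes in each re-fed (blue) and fasted (orange) liver, by the brightest probe of each gene. Lines join the 2 livers of an array, black bars are group means (n = 4) and all panels span the same range of log2 units. The groups lie apart for Syvn1, Sel1l, Derl3, Herpud1, Edem1 and Edem3 and overlap for Derl1, Derl2, Edem2 and Vcp.

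Both genes of the ligase core were lower in fasted liver, with the more negative ratio for the ligase on every array. Syvn1, the membrane ubiquitin ligase that also forms the channel for export, was at 12.25, 12.87, 12.36 and 12.37 in the fasted livers of replicates 1 to 4 and at 14.19, 15.29, 14.93 and 14.75 in the re-fed livers. Every re-fed liver lay above every fasted liver by more than 1 log2 unit. The ratios were -1.94, -2.42, -2.57 and -2.38, with a mean of -2.33 ± 0.27 (SD, n = 4) and an adjusted p of 0.0017 in limma. Without replicate 3 it was -2.25. The Syvn1 probe covers chromosome 19 from 6053583 to 6053642 (probe positions are in the mm9 build).

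Sel1l, the scaffold that stabilises the ligase and passes clients to it, was at 9.36, 9.55, 9.50 and 9.30 in the fasted and at 10.21, 10.84, 10.78 and 10.60 in the re-fed livers. The groups did not overlap, and re-fed liver 1 was the lowest of its group. The mean ratio was -1.18 ± 0.22 (SD, n = 4, adjusted p of 0.00497 in limma), that is, 2.27-fold more in re-fed liver, and without replicate 3 it was -1.15. The Sel1l probe covers chromosome 12 from 93044963 to 93045022. On each of the 4 arrays the ratio of Syvn1 was lower than that of Sel1l by nearly the same amount, between -1.29 and -1.08, with a mean difference of -1.15 ± 0.10 (SD, n = 4). An exact 2-sided sign-flip test of this difference gave the smallest p that 4 arrays allow, which was 0.167 after Benjamini-Hochberg adjustment over the 8 pairs of genes or probes compared, so no pair could pass a threshold of 0.10.

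A further probe, named D530017H19Rik in the files and listed for a cDNA clone, reaches Syvn1 only through a RefSeq synonym and was not counted among the 13. It lies on chromosome 19 at 6045128 to 6045187, on the strand opposite to the Syvn1 probe and 8395 bases away from it. Its ratios were 0.15, 0.18, 0.10 and -0.01 (mean of 0.11 ± 0.08, SD, n = 4, adjusted p of 0.475 in limma). Fasted and re-fed levels overlapped, at 6.70 to 6.89 and 6.57 to 6.85. The ratio of the Syvn1 probe was below that of this one, at a difference of -2.43 ± 0.26 on the log2 ratio scale in 4 of 4 arrays (exact sign-flip test, adjusted p of 0.167). What this second probe measures was not tested. Averaged with it, Syvn1 had a mean ratio of -1.11 and was still called (adjusted p of 0.00362 in limma). The first 30 of the 60 bases of each are shown because the signals differ although a synonym joins the names.
Syvn1 probe: gcttccttcttttggttttgtgttacagga
D530017H19Rik probe: acctctgaaatcatgtagtgagcagagcat

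Promoter sequences of 9 of the 10 genes, all but Derl1, came from a RefSeq table of the GRCm38.p6 build, with Derl2 under 2 starts. These windows of 250 bases before and 50 after the gene start were searched on both strands for ER stress elements. The ER stress response element (ERSE) is CCAAT, 9 bases of any kind, then CCACG. It was found in 39 of 32851 promoters (0.119%), and in 2 ERAD genes, Syvn1 and Derl3, which had the most negative ratios of the 10. ERSE-II, ATTGG, 1 base, then CCACG, was found in 12 promoters (0.0365%), among them that of Herpud1. The 3 promoters are shown because these matches fall in genes called lower in fasted liver, each as the 250 bases before the start with the match in capitals. The regions are chr19:6046326-6046575, chr10:75893148-75893397 and chr8:94386179-94386428, all on the plus strand. The ERSE of Syvn1 begins 44 bases before the start, that of Derl3 begins 156 bases before it and reads on the opposite strand, and the ERSE-II of Herpud1 begins 52 bases before it.
Syvn1 promoter: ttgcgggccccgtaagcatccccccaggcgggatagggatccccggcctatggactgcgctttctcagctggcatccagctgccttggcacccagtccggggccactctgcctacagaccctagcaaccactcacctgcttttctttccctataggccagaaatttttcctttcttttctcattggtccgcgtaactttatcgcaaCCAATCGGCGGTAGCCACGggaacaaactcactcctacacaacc
Derl3 promoter: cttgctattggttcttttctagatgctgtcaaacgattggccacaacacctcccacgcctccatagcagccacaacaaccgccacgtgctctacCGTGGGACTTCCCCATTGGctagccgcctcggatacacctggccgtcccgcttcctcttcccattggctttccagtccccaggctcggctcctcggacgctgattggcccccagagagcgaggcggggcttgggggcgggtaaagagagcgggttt
Herpud1 promoter: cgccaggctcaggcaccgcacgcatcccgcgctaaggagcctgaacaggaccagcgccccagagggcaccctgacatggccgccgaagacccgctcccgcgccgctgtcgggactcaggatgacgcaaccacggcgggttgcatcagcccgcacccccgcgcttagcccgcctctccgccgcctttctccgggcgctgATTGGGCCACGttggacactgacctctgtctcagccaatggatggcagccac

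The other 6 genes searched had neither element in these windows. The 8 letters TGACGTGG, a binding sequence of XBP1 in UPR promoters, stood 114 bases before the start of Vcp and in 0.676% of all promoters. TGACGTCA, the full cAMP response element that CREB binds, was in 1.79% of all promoters and in none of these windows. CCACG alone, which is part of both stress elements and, read on the other strand, of TGACGTGG, was in 32.8% of all promoters and in 9 of the ERAD genes. Of 18 measured genes with an ERSE in this window, 10 were called lower, and of the 16 that are not among the ERAD genes here 8 were (median ratio -0.80), where 2.13% of all 16054 genes or transcripts were, and 1 of the 18 was called higher. ERSE-II marked 8 measured genes, of which 2 were called lower, Herpud1 among them. TGACGTGG marked 96, of which 6 were called lower and 1 higher, and TGACGTCA marked 345, of which 9 were called lower and 10 higher. These are descriptions of letters in a window and of ratios, and binding was not examined here.

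**Figure D2:**
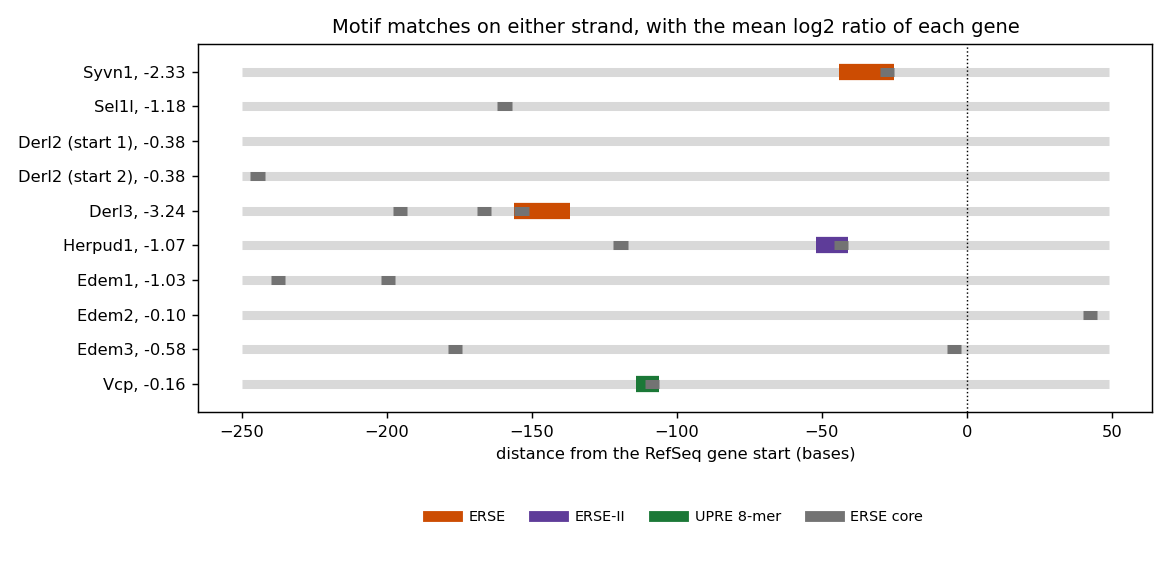
Motif matches on either strand in the promoters of 9 ERAD genes, from 250 bases before to 50 bases after the RefSeq gene start, with the mean log2 ratio of fasted over re-fed liver beside each name. ERSE lies in Syvn1 and Derl3, ERSE-II in Herpud1 and the UPRE sequence of 8 bases in Vcp, while the 5-base core of ERSE is spread over all 9 genes.

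The derlins, membrane proteins that recognise ERAD clients and help to carry them out of the ER, included 1 gene called lower, Derl3. Derl3 was at 7.78, 7.98, 8.47 and 8.51 in the fasted and at 9.96, 11.89, 11.84 and 12.00 in the re-fed livers. The groups lay far apart, and re-fed liver 1 was well below the other 3. The ratios were -2.18, -3.91, -3.37 and -3.49, with a mean of -3.24 ± 0.74 (SD, n = 4, adjusted p of 0.00448 in limma). The Derl3 probe covers chromosome 10 from 75358503 to 75358562. In re-fed liver 3, where the pancreatic markers were high, Derl3 was at 11.84, and any part of pancreatic cells in this level was not tested. Without replicate 3 the mean was -3.19 (adjusted p of 0.0266 in limma). With all spots in the background fit the mean of the 4 arrays was -2.04 (adjusted p of 0.559 in limma).

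Derl1 did not pass the test with either probe. By its brighter probe, on chromosome 15 at 57703097 to 57703156, it was at 11.49, 11.46, 11.44 and 11.30 in the fasted and at 11.59, 11.52, 11.51 and 11.48 in the re-fed livers. The groups overlapped, and the whole range over 8 livers was below 0.3 log2 units. The mean ratio was -0.10 (95% interval -0.27 to 0.06, adjusted p of 0.465 in limma). The dimmer probe, at 57701488 to 57701547, gave -0.05 ± 0.12 (SD, n = 4, adjusted p of 0.776 in limma). Without replicate 3 the means were -0.12 and -0.06.

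Derl2 lay between the other derlins, and its 3 probes gave different pictures. The brightest probe, on chromosome 11 at 70823456 to 70823515, was at 13.16, 13.13, 12.65 and 12.68 in the fasted and at 13.10, 13.18, 13.46 and 13.41 in the re-fed livers. Its ratios were 0.05 and -0.05 where fasted RNA carried Cy5 and -0.81 and -0.73 where it carried Cy3, so the groups overlapped and the split followed the dye. The mean was -0.38 ± 0.45 (SD, n = 4, adjusted p of 0.258 in limma). The second probe, at 70823857 to 70823916, had ratios of -0.50, -0.29, -0.42 and -0.25 (mean of -0.37 ± 0.11, SD, n = 4, adjusted p of 0.0481 in limma). The third, at 70821047 to 70821106, had ratios of -0.60, -0.49, -0.52 and -0.54 (mean of -0.54 ± 0.05, SD, n = 4, adjusted p of 0.0143 in limma). With both of these probes every re-fed liver lay above every fasted liver, at an adjusted p under 0.10, but neither reached 1.5-fold. Without replicate 3 the means were -0.24, -0.35 and -0.54 from the brightest to the dimmest, and the second no longer passed (adjusted p of 0.1996 in limma). All 3 lie on the minus strand and start at bases 1054, 653 and 3463 of 1 transcript in the files. Their first 30 bases are shown because the result for Derl2 depends on which is read.
Derl2 brightest probe: ctcctcctctttgatagacaaggccgtggt
Derl2 second probe: tgatacgccagatgaggatcccaattacaa
Derl2 dimmest probe: tactgttcttagctgctacatgtatgttag

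Between derlins, the ratio of Derl3 was lower than that of Derl1 on all 4 arrays, by -3.85 to -2.08 (mean of -3.14 ± 0.75, SD, n = 4), and lower than that of Derl2 by -3.87 to -2.23 (mean of -2.85 ± 0.71, SD, n = 4). Both comparisons reached the smallest p of the exact sign-flip test (adjusted 0.167). Derl2 and Derl1 differed by -0.28 ± 0.43 (SD, n = 4, exact sign-flip p = 0.5), with differences between -0.74 and 0.16.

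**Figure D3:**
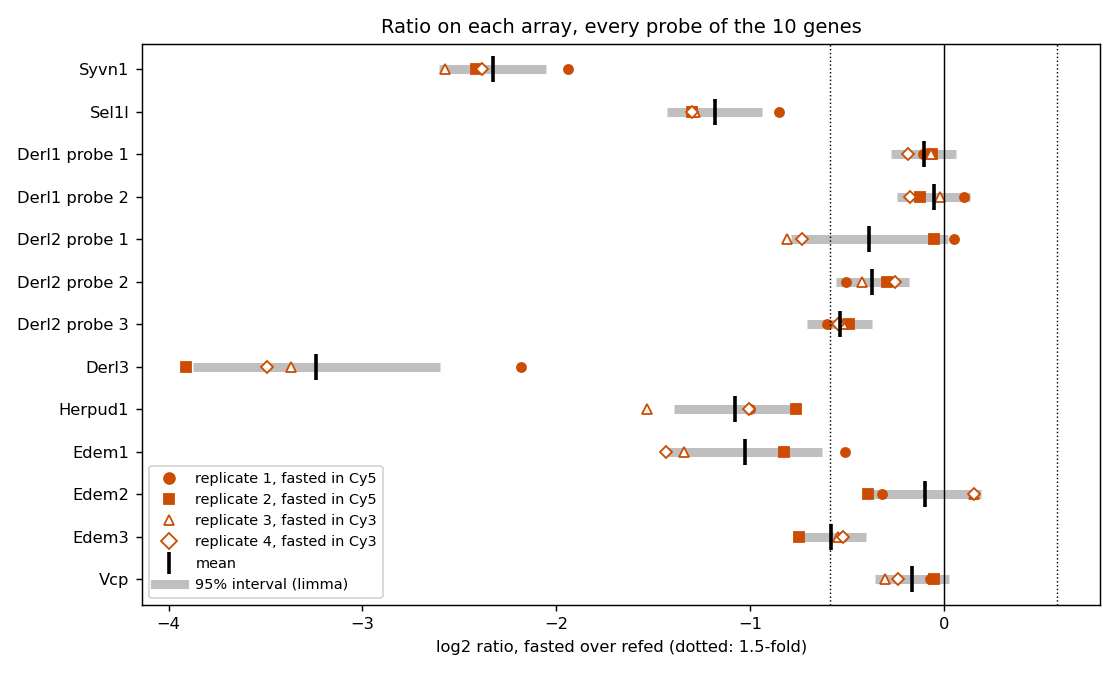
Log2 ratio of fasted over re-fed liver on each array for the 13 probes of the 10 ERAD genes. Filled symbols are arrays with fasted RNA in Cy5 and open symbols those with Cy3, black ticks are means, grey bars 95% intervals from limma and dotted lines mark 1.5-fold. Probes 1 to 3 of Derl2 run from brightest to dimmest, and the first is split by dye.

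Herpud1, a stress-induced membrane protein that attaches to the ligase complex and recruits its partners, was lower in fasted liver. Its levels were 13.04, 13.93, 12.69 and 13.04 in the fasted and 14.04, 14.69, 14.22 and 14.05 in the re-fed livers. The groups were apart by a small margin, since fasted liver 2 reached 13.93 and its partner on the same array was the highest of all. The ratios lay between -1.53 on replicate 3 and -0.76 on replicate 2 and averaged -1.07 ± 0.33 (SD, n = 4, adjusted p of 0.013 in limma), that is, 2.11-fold more in re-fed liver. It was measured on chromosome 8 at 96919117 to 96919176. Without replicate 3, which had its most negative ratio, the mean was -0.92 (adjusted p of 0.0327 in limma).

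The EDEM genes, whose products trim mannose from misfolded glycoproteins and bring them to the ligase complex, gave unequal ratios, and Edem1 was called lower in fasted liver. Edem1 was at 10.35, 10.49, 10.16 and 10.10 in the fasted and at 10.86, 11.31, 11.50 and 11.53 in the re-fed livers, with no overlap. The ratios of -0.51, -0.83, -1.34 and -1.43 averaged -1.03 ± 0.44 (SD, n = 4, adjusted p of 0.0243 in limma). They were nearer 0 on the arrays with fasted RNA in Cy5 than on the others, and without replicate 3 the call was lost, at a mean of -0.92 and an adjusted p of 0.101 in limma. The Edem1 probe covers chromosome 6 from 108808920 to 108808979.

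Edem3 was at 8.27, 8.31, 8.34 and 8.23 in the fasted and at 8.79, 9.06, 8.88 and 8.75 in the re-fed livers, so that the groups did not overlap and the fasted livers lay within about 0.1 of each other. Its ratios of -0.52, -0.74, -0.55 and -0.52 averaged -0.58 ± 0.11 (SD, n = 4, adjusted p of 0.015 in limma). The change was 1.499-fold, just short of the limit of 1.5-fold, and Edem3 was therefore not called although its adjusted p was smaller than that of Edem1. Edem3 was measured on chromosome 1 at 153668950 to 153669009. Without replicate 3 the mean was -0.60 and the gene was called (adjusted p of 0.0769 in limma).

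Edem2, the mannosidase that takes the first mannose off a client glycan, was the dimmest of the 13 probes, at 6.66, 6.80, 7.14 and 7.10 in the fasted and 6.98, 7.19, 6.98 and 6.94 in the re-fed livers. The groups overlapped, and the sign of the ratio followed the dye, at -0.32 and -0.39 with fasted RNA in Cy5 and 0.16 and 0.16 in Cy3. The mean was -0.10 ± 0.30 (SD, n = 4; 95% interval -0.39 to 0.19, adjusted p of 0.715 in limma). The mean moved between -0.001 without replicate 2 and -0.18 without replicate 3 or 4, and was -0.27 with plain subtraction of the background. Edem2 was measured on chromosome 2 at 155534678 to 155534737. The ratio of Edem1 was below that of Edem2 by -0.93 ± 0.72 and that of Edem2 above that of Edem3 by 0.49 ± 0.24 (SD, n = 4), each in 4 of 4 arrays (exact sign-flip test, adjusted p of 0.167). Edem1 and Edem3 differed by -0.44 ± 0.48 (SD, n = 4, exact sign-flip p = 0.25), with differences between -0.91 and 0.02.

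Vcp encodes the p97 ATPase, which extracts ubiquitinated clients here and also serves many other processes in the cell. It was at 13.18, 13.38, 13.10 and 13.15 in the fasted and at 13.25, 13.43, 13.40 and 13.39 in the re-fed livers. The groups overlapped, although the re-fed liver was the higher one on each of the 4 arrays. The mean ratio was -0.16 ± 0.12 (SD, n = 4; 95% interval -0.36 to 0.03, adjusted p of 0.298 in limma). Without replicate 3 it was -0.12. The Vcp probe covers chromosome 4 from 42992940 to 42992999.

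The dye swap allowed the effect of the dye itself to be estimated for each probe. Of the 13 ERAD probes, 3 had a dye effect at an adjusted p under 0.10 in limma, as did 14.8% of all probes. They were the brightest Derl2 probe, at 0.39 on the log2 scale for Cy5 over Cy3 (adjusted p of 0.0332), the Edem1 probe at 0.36 (0.0512) and the Edem2 probe at -0.25 (0.0589). With 2 arrays in each orientation a dye effect cancels in the mean, but it widens the spread. With a dye term in the model the means were the same and the adjusted p of the brightest Derl2 probe was 0.0106 in limma, still below 1.5-fold. Dye and array could be separated no further, since each orientation held 2 arrays.

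**Figure D4:**
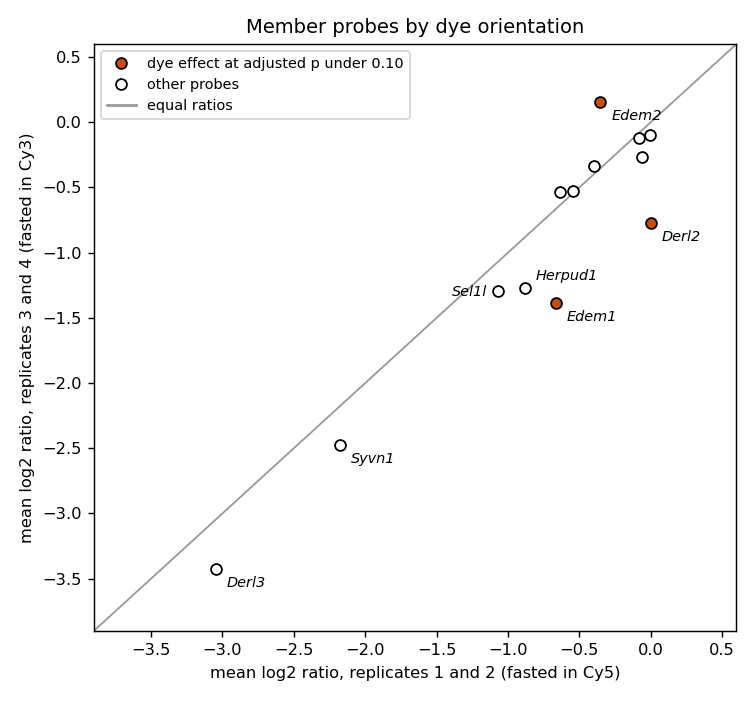
Mean log2 ratio of each of the 13 ERAD probes on the arrays with fasted RNA in Cy5 (x axis, replicates 1 and 2) and in Cy3 (y axis, replicates 3 and 4). Filled points are the 3 probes with a dye effect at an adjusted p under 0.10, and the line marks equal ratios. Derl3, Syvn1, Sel1l, Herpud1 and Edem1 are negative in both orientations.

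Other genes of ERAD, listed by role, had a median ratio near 0. Both this list and the 10 genes were chosen with earlier results of these data known. Of 54 such genes, 53 were on the array and 51 passed the filter. By their brightest probes 5 were called lower and 2 higher in fasted liver, beside 2.08% and 1.7% of all probes, and 44 were not called. Their median ratio was -0.06, against -0.81 for the 10 genes above, while single ratios ranged from -1.03 to 1.19. A further 4 were lower at an adjusted p under 0.10 without reaching 1.5-fold, as were 667 of all 16054 genes or transcripts.

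The sterol-regulated adaptors, which link the degradation of the cholesterol enzyme HMG-CoA reductase to sterol levels, held 3 of the 7 called genes. Erlin1, part of an ER membrane complex that recruits ligases, had ratios of -0.90, -0.88, -1.19 and -1.16 (mean of -1.03 ± 0.16, SD, n = 4, adjusted p of 0.00475 in limma). Insig1, which binds the sterol sensor Scap, had ratios of -0.56, -1.03, -0.96 and -0.32 (mean of -0.72 ± 0.34, adjusted p of 0.0354 in limma), with overlapping groups of livers. Insig2, its paralog, went the other way, at 1.21, 1.21, 1.40 and 0.93 (mean of 1.19 ± 0.19, adjusted p of 0.00424 in limma), and every fasted liver lay above every re-fed liver. A second Insig2 probe gave 1.39 and was called too. Erlin2, the partner of Erlin1, had a mean of 0.10 ± 0.43 and was not called.

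Among 8 other ubiquitin ligases of the ER membrane, Rnf145, a sterol-responsive ligase, was lower (mean ratio of -0.66 ± 0.15, SD, n = 4, adjusted p of 0.0143 in limma) and Rnf103 was higher (0.64 ± 0.25, adjusted p of 0.0277). The second Rnf103 probe, at 0.57, fell just short of 1.5-fold. Of 5 ubiquitin-conjugating enzymes only Ube2g2, which works with several ER ligases, was called, at -0.59 ± 0.38 (adjusted p of 0.074 in limma). Its livers overlapped, its ratio on replicate 1 was -0.04, and its second probe gave -0.05. Of 6 lectins and client-selecting proteins only Txndc11, a redox partner of the EDEM proteins, was called, at -0.62 ± 0.25 (adjusted p of 0.0309 in limma), and its second probe gave -0.16 and was not called. Of the 7 called genes, Insig1, Rnf103, Ube2g2 and Txndc11 each lost the call when 1 of several replicates was left out.

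Of all probes, 2.08% were called lower and 1.7% higher. No gene was called among 6 partners of the membrane complex, 9 Vcp cofactors and membrane recruiters or 13 factors for cytosolic handling and deubiquitination that passed the filter. The difference of greatest size was -0.19 ± 0.23 (SD, n = 4) for Tmub1 in the first group and 0.33 ± 0.39 for Yod1, a deubiquitinase, in the last. Among the Vcp cofactors it was -0.55 ± 0.33 for Selenok (adjusted p of 0.0664 in limma), a selenoprotein of the ER membrane that binds p97, and its second probe gave -0.38. Selenos, a related recruiter of p97, had -0.48 ± 0.16 (adjusted p of 0.0315 in limma). Both were above in every re-fed liver and short of 1.5-fold.

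**Figure D5:**
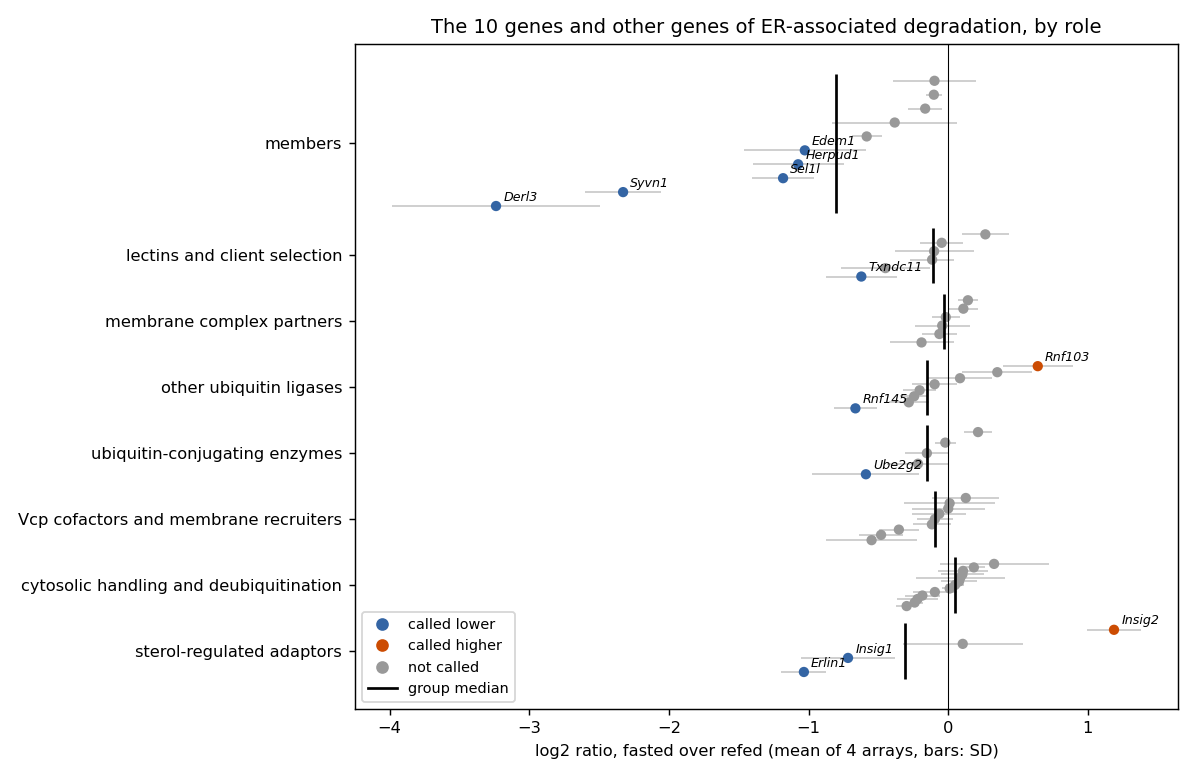
Mean log2 ratio of fasted over re-fed liver (4 arrays, bars are SD) for the 10 ERAD genes and for 51 other ERAD genes in 7 roles, by the brightest probe of each gene. Blue points were called lower, orange points higher, and black lines are group medians. The median of the 10 genes lies at -0.81, and those of the 7 roles lie between -0.31 and 0.05.

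The median ratio of the 10 ERAD genes was -0.52, -0.75, -1.05 and -0.87 on replicates 1 to 4. Among 15993 other genes the 5 with ratios nearest to these 4 values, by Euclidean distance over 4 arrays, were Ormdl2, Uap1, a probe with no gene name (A_55_P2046408), Saysd1 and Mesd, at distances of 0.18 to 0.23. Their mean ratios lay between -0.81 and -0.71. Ormdl2 is a regulator of sphingolipid synthesis in the ER membrane, Uap1 makes the sugar nucleotide UDP-GlcNAc and Mesd is an ER chaperone of lipoprotein receptors.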

How the data were processed

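Total RNA (200 ng per liver) of 4 fasted and 4 re-fed livers was labelled with Cy3 or Cy5 by the authors, hybridized to 2-colour Agilent arrays in a dye swap and quantified with Feature Extraction. The deposited scanner files hold raw intensity per spot (44397 per array), local background intensity and quality flags. A second deposited table holds the authors' log2 ratios, normalized by loess in limma, which already run as fasted over re-fed and served as an alternative. All arrays came from 1 slide, so slide was no batch.

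Median intensities were processed in R 4.3.3 with limma 3.58.1. Spots with a local background over 3 times the array's median (55 in all) were left out, since some backgrounds reached 443380 on an array with a median of 32.5 to 35. This step was adopted after these data had been seen. Normexp with an offset of 50 and loess within arrays (span 0.3) followed, without print tips, which these arrays lack. Flagged spots were left out and spots of a probe averaged. Probes were kept when well above background on all 4 arrays in at least 1 condition, which left 19721 of 39429. Ratios were tested with lmFit and eBayes, 2-sided, with Benjamini-Hochberg adjustment over these probes. The study's methods name SAM at 10% FDR and 1.5-fold, rebuilt as an alternative. Levels of single livers come from the channels after loess and Aquantile normalization. The number of arrays limits the precision.

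The 10 genes, the other lists, the motifs and the tests were chosen with earlier results of these data known. Genes are read by their brightest probe, and the named genes are the 10, the called genes of the list of other ERAD genes, the largest change of each role without a call, and the 5 nearest genes. Selenos, the synonym probe and Erlin2 were added after their values were seen. Probes were named by RefSeq accession (26055), symbol (3195), synonym (930) or the file. Promoters are from RefSeq, GRCm38.p6. The steps were tested on simulated data. Protein sequences were not used here. The 24 alternatives covered background, normalization, filters, signals, model, thresholds, probe choice and leaving out each replicate.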

Additional observations from a re-analysis of the deposited data

Results flagged for a closer look

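In 6 of 48 sets of 4 values (the ratios, fasted levels and re-fed levels of the 13 probes, the ratios of the 7 called genes of the list of other ERAD genes, and both lists' medians), 1 value stood apart by Dixon's measure, the gap to its nearest neighbour as a share of the whole range. Chance alone marks about 1 in 20 such sets, and sets from 1 probe share arrays. The ratio of Sel1l was -0.85 on replicate 1 and -1.30 to -1.28 on the others (0.964). The ratio of Edem3 was -0.74 on replicate 2 and -0.55 to -0.52 on the others (0.891). In re-fed livers, the Derl3 level was 9.96 on replicate 1 and 11.84 to 12.00 on the others (0.921). The Edem2 level was 7.19 on replicate 2 and 6.94 to 6.98 on the others (0.835). For Derl2, the second probe was at 11.80 on replicate 4 and 12.03 to 12.08 on the others (0.839), and the third was at 10.13 on replicate 2 and 9.96 to 9.98 on the others (0.89). Reasons were not tested.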

How the results depend on the processing

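The medians of both lists and the ratios of the 10 genes and the 7 other called genes, each under 24 alternatives, did not change sign, nor did 7 differences between members under 7 alternatives. The motif counts, nearest genes and D530017H19Rik were not recomputed. The count of the 10 genes called lower moved most under normexp on all spots, with no limit on local background. There 1 of the 10 genes (Syvn1) was called lower, the median of the 10 was -0.52, and 0.076% of all probes were called lower. Among the 10 genes, the calls lost there had ratios of -2.04 for Derl3, -0.68 for Sel1l, -1.12 for Herpud1 and -0.61 for Edem1. Of the listed other ERAD genes 0 were lower and 1 higher, Insig2 at 1.15. Calls were lost for Erlin1 (-0.61), Insig1 (-0.42), Rnf145 (-0.29), Ube2g2 (-0.29), Txndc11 (-0.48) and Rnf103 (0.50). The differences were -1.95 (Derl3 minus Derl1), -1.61 (Derl3 minus Derl2), -0.34 (Derl2 minus Derl1) and -1.67 (Syvn1 minus Sel1l). Between Edem genes they were -0.43 (Edem1 minus Edem2), -0.27 (Edem1 minus Edem3) and 0.16 (Edem2 minus Edem3). Under the other alternatives 4 to 6 of the 10 were called lower, always with Syvn1, Sel1l, Derl3 and Herpud1. Of all probes or genes tested, 0.669% to 6.13% were called lower under these settings. Edem1 was lost under treat at 1.2-fold and without replicate 3 (-0.92). Edem3, just under the fold limit, was called under 10 alternatives. Leaving out each replicate gave 5 to 6 genes lower and 0 higher, with a median of -0.85 to -0.75, beside 1.30% to 2.59% of all probes lower.

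The list of other ERAD genes depended more on settings. Median centring in place of loess, which moved the median of all probes by -0.06, gave 8 lower, 1 higher and a median of -0.19. With it 3.22% of all probes were called lower. Called lower were 2 with treat, beside 0.918% of all probes, and 9 with no fold limit, beside 6.13%. A 2-fold limit gave 1, beside 0.669%, and the mean of a gene's probes gave 3, beside 2.00% of all genes or transcripts. That mean, which takes in the synonym probe, was -1.11 for Syvn1. Called higher was 1 with treat and with a 2-fold limit. Leaving out a replicate gave 2 to 5 lower and 1 to 2 higher, beside 1.30% to 2.59% of all probes called lower. Calls were then lost for Rnf103 without replicate 1, 2 or 3 (0.57 to 0.67) and Insig1 without 2 or 3 (-0.64 to -0.61). Txndc11 lost its call without 1 or 2 (-0.55) and Ube2g2 without 2, 3 or 4 (-0.57 to -0.49). Dye effects were called for 0 probes with Agilent's processed signals, 1 with median centring and 0 to 3 without a replicate. Agilent's signals gave -1.03 for Syvn1 minus Sel1l. Each ratio already pairs 1 fasted with 1 re-fed liver by array, and the fit of separate channels with intraspot correlation called the same 5 genes. Edem2, the dimmest, was at -0.27 with plain subtraction and -0.26 with Agilent's signals, and at -0.03 and -0.001 without replicate 1 and 2.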
